A study of Mus musculus with 200 samples.

Results

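Epithelial and mesenchymal state genes were followed through all 7 transcript tables of a mouse peri-implantation series. The 8 genes, fixed by symbol, were Cdh1, Epcam, Ovol2, Cdh2, Vim, Fn1, Snai1 and Zeb2, out of 25006 gene rows in the screen table and 25229 in the E4.5 and dTAG tables. All 8 were found in every table, and each perturbed group was set against the controls of its own table and batch. The study perturbed chromatin and transcription factors around implantation and measured polyadenylated RNA in 200 libraries that form 70 groups.

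Epithelial cells hold together through E-cadherin (Cdh1) at adherens junctions and carry the surface adhesion protein Epcam, while Ovol2 is a zinc finger repressor that maintains the epithelial state. Mesenchymal cells carry N-cadherin (Cdh2), the intermediate filament vimentin (Vim) and the matrix glycoprotein fibronectin (Fn1). Snai1 and Zeb2 are repressors that bind E-box sequences in epithelial genes, Cdh1 among them, and drive epithelial to mesenchymal transition, as at the primitive streak of the mouse gastrula. The epiblast (Epi), which forms the embryo proper, is an epithelium before gastrulation, and the primitive endoderm (PrE) is the neighbouring lineage that lines the yolk sac.

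Smart-seq2, which copies whole transcripts from few cells, was run on about 10 to 100 cells a library, per the labels' protocols. In Epi, GSK-J4, which blocks enzymes that remove methyl groups from H3K27 (Kdm6a, Kdm6b), was compared with wild-type controls at E4.5 and at E5.0, with 50 µM applied from the E3.5 blastocyst in the E5.0 design. A Suz12 Eed double knockout, which targets core subunits of the H3K27 methyltransferase PRC2, was compared with wild type at E5.0 in Epi and in PrE. Zbtb17, a zinc finger factor also called Miz1, was perturbed in Epi by knockout at E4.5 and by dTAG treatment, which degrades a tagged protein, at E5.0. In embryoid bodies (EB), clumps of stem cells left to differentiate, Zbtb17 KO (line ZB11 in the titles) was compared with wild type on days 0, 1, 2 and 3. The screen held Epi libraries in 10 batches, with 40 knockout groups made by C-CRISPR, a method that cuts 1 gene with several guide RNAs, and wild-type controls in each batch.

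Batch 1 of the screen held knockouts of Aurkb, Nelfb, Snai1, Ss18 and Ssrp1, and batch 2 of Ascl2, Cxxc1, Elf5, Ets2, Lmo2, Mcrs1 and Suz12. Batch 3 held Atrx, Cbx2, Cbx7, Jarid2 and Rnf2, batch 4 Kdm6a, Myc, Otx2 and Tfap2c, and batch 5 Ezh2, Kdm6b and Zfp57. Batch 6 held Zbtb17, and batches 7 and 8 each held Bend3. Batch 9 held Ovol2, Smad2, Sox4, Wt1 and Zfp281, and batch 10 Chd4, Fos, Gtf2b, the Hdac1 Hdac3 double knockout, Hsf2, Junb, Mbd3 and Mta2. Knockouts of a batch shared its controls, so their differences are not independent of each other. Each embryo group had 3 libraries apart from Ascl2 knockouts and batch 7 controls, which had 2 each, as did all EB groups. The labels give no strain, and do not say whether libraries of a group came from separate embryos, so p-values measure only the spread between these libraries. The labels conflict on 2 points: batch 8 titles give 6.0 where the stage label is E5.0, and the Zbtb17 KO libraries at E4.5 carry a treatment label of dTAG.

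Some libraries stood apart. The Zbtb17 E4.5 table had 3986 to 4952 genes at 1 TPM or more per library, against 9465 to 11279 in the other embryo tables outside the screen. EB day 0 libraries had as few as 5970 such genes, and Pou5f1, which marks pluripotent cells, was at 20.0 to 21.5 TPM in Zbtb17 KO and 13.4 to 15.7 TPM in wild type on that day, against 1719 TPM or more on later days. In screen batch 7 the ribosomal RNA transcript Rn45s took 299520 to 316030 TPM in Bend3 knockout and 186890 to 219920 TPM in control libraries, against at most 19557 TPM in the other batches. Screen targets numbered 40, with Hdac1 and Hdac3 counted apart, Bend3 counted in batches 7 and 8 and Aurkb left out. Of these, 16 had their own transcript below every control of the batch, 16 overlapped them and 8 were above them. By limma, 8 of the 40 were called lower and 3 higher. The 16 that overlapped were Ssrp1, Chd4, Gtf2b, Junb, Mbd3, Ets2, Lmo2, Atrx, Cbx2, Cbx7, Jarid2, Otx2, Kdm6b, Zfp57, Zbtb17 and Wt1. The 8 above every control were Snai1, Ovol2, Myc, Cxxc1, Ascl2, Nelfb, Zfp281 and Bend3 of batch 7. Libraries of these 8 are named here by label only. A targeted gene's transcript can persist after cutting, and protein was not measured. Libraries labelled Epi carried extraembryonic ectoderm markers in the screen and outside it, and Epi is used here as the label. Screen controls had medians of 98.3 TPM for Elf5, a trophoblast factor, and 3.04 TPM for Sox2, an epiblast factor. Other epiblast genes were at varied levels in the same controls, with medians of 600 TPM for Utf1, 35.4 TPM for Pou5f1, 20.8 TPM for Fgf5, 20.7 TPM for Otx2 and 1.38 TPM for Nanog. Elf5 was at 64.5 to 75.5 TPM in GSK-J4 E5.0 controls and 70.2 to 95.7 TPM in Suz12 Eed Epi controls, and Sox2 at 0.548 to 2.32 TPM and 1.93 to 4.28 TPM in the same libraries. Utf1 was at 1108 to 1152 TPM and 948 to 1481 TPM there, and Pou5f1 at 55.3 to 68.2 TPM and 43.4 to 138 TPM. The 3 knockout libraries of screen batch 6 also had fewer genes at 1 TPM or more, 7447 to 9225 against 9982 to 10434 in their controls.

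The genes lie on mm10 (GENCODE vM21) at chr8:106603351-106670246 for Cdh1, chr17:87635979-87651129 for Epcam and chr2:144305175-144332146 for Ovol2. Vim spans chr2:13573927-13582826 and Fn1 chr1:71585520-71653200. Snai1 spans chr2:167538195-167542814 and Zeb2 chr2:44983632-45117395. RefSeq windows of the 250 bases before a transcription start (GRCm38.p6) were at hand for Epcam, Ovol2, Vim, Snai1 and Zeb2, 5 of the 8 genes, and not for Cdh1, Cdh2 or Fn1. The E-box letters CACCTG, whose reverse complement is CAGGTG, were searched on either strand and stood in 17.2% of 32851 such windows. They were found before Epcam, at 187 and 19 bases before the start, and before Snai1, at 126 bases, and in none of the windows of Ovol2, Vim and Zeb2. The letters CCGTTA or TAACGG, a core bound by Ovol factors, stood in 2.18% of all windows and in none of these genes' windows. The Epcam and Snai1 windows are shown because they hold these letters, and because both genes were called in several knockouts of the screen. Capitals mark the E-box letters, both windows are on the plus strand, and a match is a description of the letters only.
Epcam, chr17:87635729-87635978: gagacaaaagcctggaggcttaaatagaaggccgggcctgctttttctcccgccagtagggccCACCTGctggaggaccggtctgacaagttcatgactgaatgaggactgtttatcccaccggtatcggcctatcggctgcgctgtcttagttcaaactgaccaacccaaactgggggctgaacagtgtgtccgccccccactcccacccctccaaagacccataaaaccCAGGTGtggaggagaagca
Snai1, chr2:167537945-167538194: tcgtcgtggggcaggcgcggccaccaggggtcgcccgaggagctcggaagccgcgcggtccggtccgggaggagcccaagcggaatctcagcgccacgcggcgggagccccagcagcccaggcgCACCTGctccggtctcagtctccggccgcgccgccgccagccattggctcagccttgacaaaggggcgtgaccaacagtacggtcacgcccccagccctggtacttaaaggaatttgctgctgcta

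The 8 genes sat at widely different levels in Epi, given here in TPM, a share of all transcripts that corrects for transcript length. Across the 29 control libraries of the screen, Epcam ranged from 217 to 1005 TPM with a median of 508 TPM, and Cdh1 from 14.5 to 158 TPM with a median of 43.1 TPM. Snai1 had a median of 7.84 TPM (0 to 29.5), Vim 6.502 TPM (0 to 30.2) and Ovol2 5.42 TPM (0 to 41.8). Fn1 had a median of 1.66 TPM (0 to 6.74) and Cdh2 of 0.296 TPM (0 to 4.20), and Zeb2 was at 0 in 23 of the 29 libraries and never above 0.343 TPM. The epithelial surface proteins were thus at the top of this order and N-cadherin and Zeb2 at the bottom, while the ranges of Snai1, Vim and Ovol2 in the middle overlapped almost entirely. Over all 146 screen libraries, with the 3 nearly identical Aurkb libraries averaged, Cdh1 and Epcam were detected in every one, and Zeb2 reached 1 TPM in none.

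**Figure D1:**
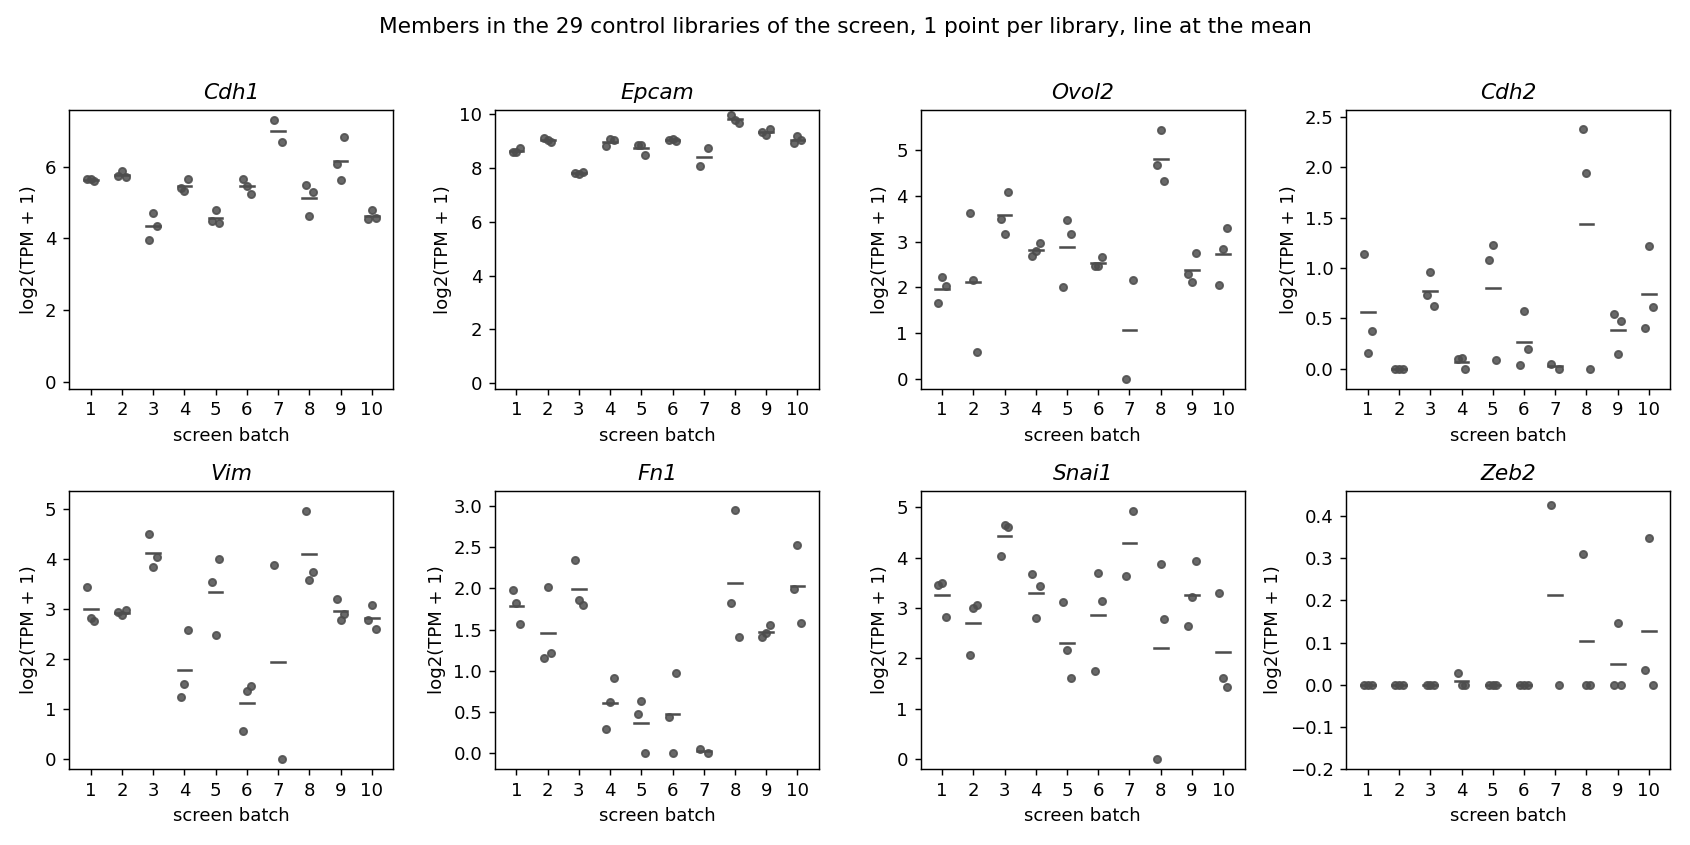
Levels of the 8 genes in control Epi libraries of the screen by batch, on the log2(TPM + 1) scale, with 1 point per library and a line at the mean. Epcam was lowest in batch 3 and highest in batch 8, and most points of Zeb2 lie at 0.

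Control levels moved between batches by more than the spread within them for Epcam. Epcam averaged 902 ± 94.8 TPM in batch 8 and 223 ± 6.25 TPM in batch 3 (SD, n = 3 each), the ends of the order. The batches next to each other in the middle, 10, 2, 6 and 4, averaged 532, 526, 525 and 505 TPM and did not differ beyond their spread. Cdh1 averaged 130.5 TPM in the 2 controls of batch 7 and 19.6 ± 5.23 TPM in batch 3 (n = 3), and Ovol2 was highest in batch 8, at 28.3 ± 12.01 TPM. For this reason no knockout was compared with controls of another batch.

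GSK-J4 left all 8 genes without a call at E4.5 and lowered Epcam at E5.0. Epcam had 305, 223 and 353 TPM in GSK-J4 Epi at E5.0, against 636, 637 and 624 TPM in controls. All treated libraries were below all controls (log2 change -1.13 ± 0.16 SE, limma adjusted p = 0.00168). Fn1 had 8.15, 8.93 and 5.92 TPM in GSK-J4 Epi, against 2.36, 2.34 and 2.06 TPM in controls, and rose (log2 change 1.399 ± 0.376 SE, limma adjusted p = 0.0272). These 2 were the calls among 6 of the genes tested, where 28.3% of all genes tested were called. The Fn1 call was lost without any 1 of the controls (adjusted p 0.108 to 0.127), while the Epcam call held.

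The other genes were uneven among the GSK-J4 libraries at E5.0. Snai1 had 50.2, 25.1 and 1.65 TPM in GSK-J4 Epi, against 10.96, 13.2 and 12.9 TPM in controls. Cdh2 had 3.54, 4.35 and 0.0902 TPM in GSK-J4 Epi, against 0, 0.152 and 0.166 TPM in controls, too low for a test. Vim was at 0 in GSK-J4 libraries 1 and 3 and at 21.9 TPM in library 2, against 4.54, 3.72 and 4.71 TPM in controls. The treated libraries thus lay on either side of the controls for Snai1 and Vim, and without GSK-J4 library 3 Snai1 (log2 change 1.45, limma adjusted p = 0.0219) and Cdh2 (2.16, 0.00646) were called. Without library 2, Vim was called lower (-2.41, 0.00475). Zeb2 was at 0, 1.04 and 0.782 TPM in GSK-J4 Epi and at 0 in all controls. Cdh1 had 50.9, 28.98 and 22.3 TPM in GSK-J4 Epi, against 31.0, 36.3 and 45.5 TPM in controls, and Ovol2 overlapped likewise.

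Around them, 9 of 40 tested junction and polarity genes rose and 6 fell at E5.0, where 28.3% of all genes were called. The tight junction gene Cldn6 averaged 510 TPM in GSK-J4 Epi against 194 TPM in controls, and the keratin Krt8 797 TPM against 1125 TPM. Of 6 tested genes of the mesenchymal list 2 rose, the matrix protein gene Sparc, which is on the PrE marker list too (1414 TPM in GSK-J4 Epi, 134 TPM in controls), and the galectin Lgals1. PrE markers moved with these changes: the summed level of 21 markers was 7895 to 8712 TPM in GSK-J4 libraries and 888 to 935 TPM in controls, with 19 to 20 of the 21 at 1 TPM or more against 10 to 11. Dab2, an endocytic adaptor of PrE, was at 486 to 571 TPM against 5.46 to 8.24 TPM. Their part in the Epcam and Fn1 results was not tested. In bulk libraries, fewer cells of a type and less RNA per cell cannot be told apart.

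At E4.5 no gene of the 8 passed the test, where 1.15% of all genes tested did. Snai1 had 21.8, 14.3 and 21.7 TPM in GSK-J4 Epi, against 9.69, 13.2 and 9.45 TPM in controls. Its groups did not overlap, yet the difference was within the spread that limma allowed for (log2 change 0.77, adjusted p = 0.698). Epcam had 116, 169 and 227 TPM in GSK-J4 Epi, against 195, 202 and 256 TPM in controls (-0.39, 0.641). Fn1, at 25.3, 24.6 and 13.9 TPM in GSK-J4 Epi and 44.6, 13.5 and 3.55 TPM in controls, spread widely within groups, as did Vim and Ovol2. Among junction genes 0 rose and 5 of 37 tested fell, among them the tight junction gene Cldn3 (11.4 TPM in GSK-J4 Epi, 113 TPM in controls). Zeb2 was at 0 in all 6 libraries. Trophectoderm and extraembryonic ectoderm markers summed to 224 to 287 TPM in GSK-J4 Epi and 559 to 690 TPM in controls, and PrE markers to 7001 to 7632 TPM and 5541 to 5811 TPM. Their part in these results was not tested.

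**Figure D2:**
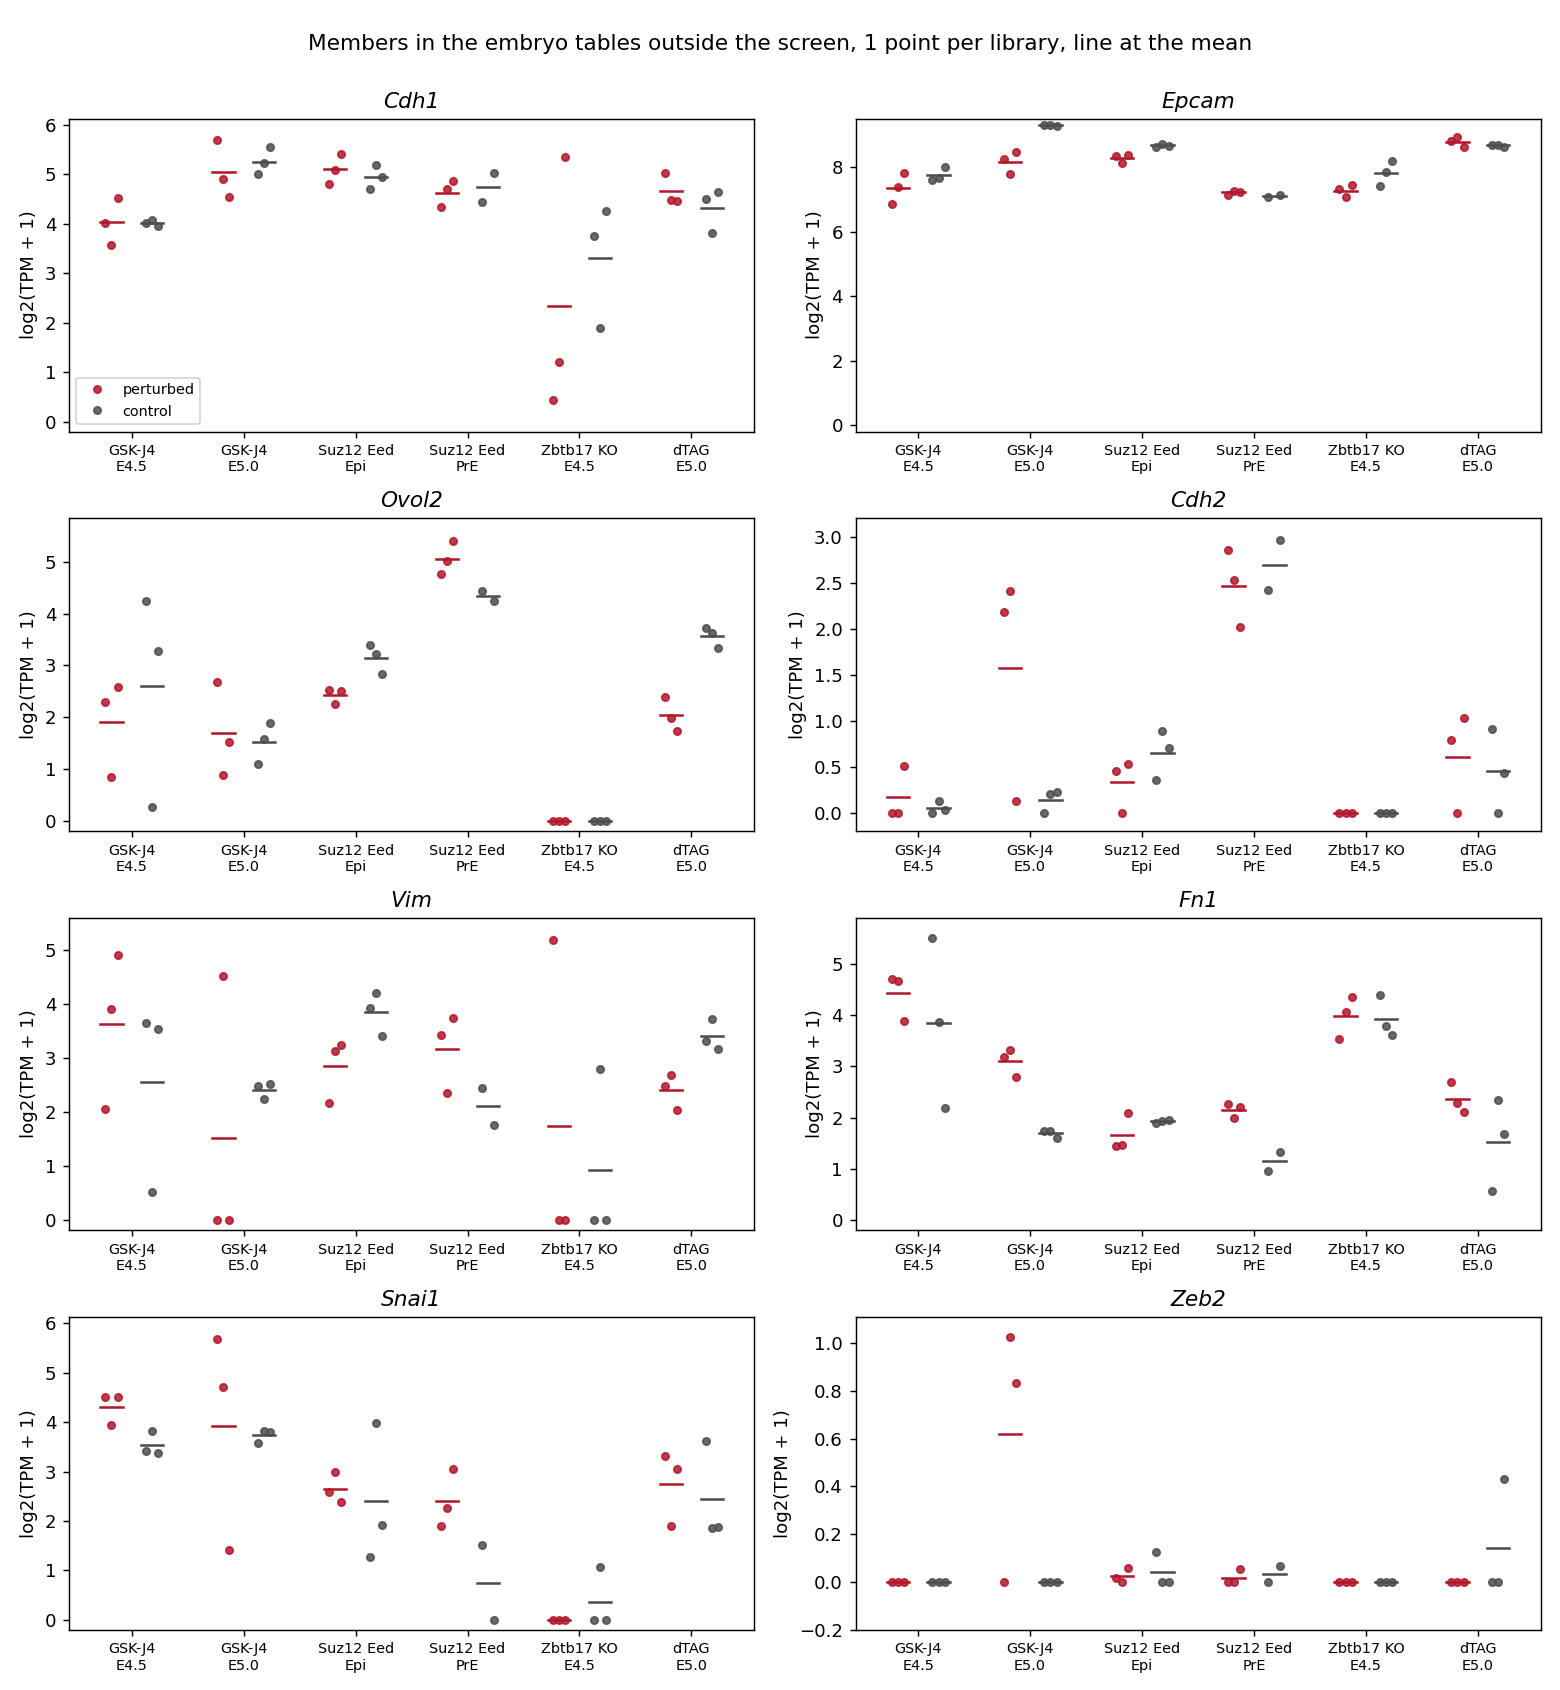
Levels of the 8 genes in the embryo tables outside the screen, on the log2(TPM + 1) scale, with 1 point per library, the perturbed group (red) left of its control (grey) and a line at the mean of the log2 values. The Epcam panel shows all GSK-J4 points at E5.0 below the controls, and the Ovol2 panel shows the same for dTAG.

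In the Suz12 Eed double knockout Fn1 rose in PrE, while in Epi none of the genes tested passed the main test. Both targets were lower in knockout: Suz12 had a median of 10.3 TPM in knockout Epi against 24.6 TPM in control Epi, and Eed 44.8 TPM against 177 TPM, with like differences in PrE. In Epi 0 of 6 tested genes passed in the main fit, which did not pair libraries, where 9.19% of all genes did. Epcam had 325, 282 and 333 TPM in knockout Epi, against 398, 425 and 409 TPM in control Epi. Every knockout library was below every control (log2 change -0.39 ± 0.12 SE, limma adjusted p = 0.0569), and with the replicate number as a block it passed (adjusted p = 0.0366). Ovol2 had 4.75, 3.76 and 4.64 TPM in knockout Epi, against 9.55, 8.28 and 6.14 TPM in control Epi (-0.73, 0.104). Vim had 3.45, 7.70 and 8.44 TPM in knockout Epi, against 14.1, 17.4 and 9.64 TPM in control Epi (-1.004, 0.140). Neither overlapped between groups and neither passed, while Cdh1, Fn1 and Snai1 overlapped. The median log2 change of all genes tested was -0.13, and the share of all genes without overlap was not counted.

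In the same Epi libraries 3 of 39 tested junction and polarity genes rose and 0 fell, where 9.19% of all genes were called. All 3 were simple epithelial keratins. Krt8 averaged 1388 TPM in knockout Epi against 324 TPM in control Epi, Krt18 2954 TPM against 951 TPM and Krt19 233 TPM against 26.8 TPM. The summed trophectoderm and extraembryonic ectoderm markers were at 2315 to 2822 TPM in knockout Epi and 384 to 545 TPM in control Epi. The part of those markers in the keratin result was not tested.

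In PrE, Fn1 had 3.81, 3.00 and 3.60 TPM in knockout libraries, against 0.811, 1.10 and 1.51 TPM in controls. Controls 1 and 2 were nearly identical (r = 0.9955) and were counted as 1 library by their mean. Fn1 rose by 1.01 ± 0.35 (SE, log2 scale, limma adjusted p = 0.0427), the only call of 7 tested, where 26.7% of all genes were called. The median of all genes tested was 0.40 on the same scale, with 2447 genes higher and 590 lower. The call was lost with any 1 library left out (adjusted p 0.0586 to 0.183) and under quantile normalization, where the log2 change was 0.52 (0.277). Ovol2 had 26.0, 31.2 and 41.6 TPM in knockout PrE, against 20.6, 20.9 and 17.997 TPM in controls (0.71, 0.0890). Snai1 had 2.76, 3.78 and 7.30 TPM in knockout PrE, against 1.94, 1.76 and 0 TPM in controls (1.65, 0.0767). Each lay above all its controls without passing the test. Epcam was at 141, 154 and 150 TPM in knockout PrE and at 132, 139 and 140 TPM in controls, and Cdh1, Cdh2 and Vim overlapped. Of 37 tested junction genes 18 rose and 0 fell, led by Krt8 (665 TPM in knockout PrE, 141 TPM in control PrE), and the list's median log2 change was 0.94. Trophectoderm and extraembryonic ectoderm markers summed to 459 to 502 TPM in knockout PrE and 270 to 276 TPM in control PrE, and PrE markers to 9395 to 11814 TPM and 7017 to 7679 TPM. Their part in these results was not tested.

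The knockout effect itself differed between PrE and Epi for Vim and Ovol2, 2 of 7 genes tested, where 19.1% of all genes differed. Vim moved by 2.07 more in PrE than in Epi on the log2 scale (limma adjusted p = 0.0273) and Ovol2 by 1.44 more (0.0190). The median of this difference over all genes tested was 0.45, with 1972 higher and 548 lower. Neither effect passed the test within PrE or within Epi. Both differences were lost under quantile normalization (adjusted p 0.0992 and 0.102), and leaving out 1 library ended the Vim call for 6 libraries and the Ovol2 call for 2.

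Control PrE and control Epi differed in 5 of 7 tested genes, where 56.5% of all genes differed and the median log2 change of all genes was -0.46. Epcam averaged 138 TPM in PrE and 410 TPM in Epi (log2 change -1.57, limma adjusted p = 1.97e-07), and Vim 3.42 TPM in PrE and 13.7 TPM in Epi (-1.74, 0.00462). Ovol2 was higher in PrE, at 19.4 TPM against 7.99 TPM in Epi (1.20, 0.00319), as was Cdh2, at 5.62 TPM against 0.583 TPM (2.05, 0.000295). Snai1 was lower in PrE, at 0.926 TPM against 6.38 TPM (-1.64, 0.0438), with a call that was lost without control Epi library 2 (adjusted p = 0.197). The Vim call was lost without control PrE library 3 (0.0790), as was that of Snai1 (0.417). PrE thus had more N-cadherin transcript and more Ovol2 than the libraries labelled Epi, with less Epcam. Cdh1 did not pass (-0.21, 0.535), nor did Fn1 (-0.78, 0.0655).

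Of the Zbtb17 perturbations in embryos, dTAG treatment lowered Ovol2. Ovol2 had 4.22, 2.97 and 2.30 TPM in dTAG Epi, against 12.2, 11.4 and 9.06 TPM in controls. All treated libraries were below all controls (log2 change -1.53 ± 0.39 SE, limma adjusted p = 0.0306), the only call of 6 tested, where 11.7% of all genes were called. It was lost with any 1 control left out (adjusted p 0.0688 to 0.108), and without dTAG library 2 (0.0683) or 3 (0.0878). Vim had 4.60, 5.37 and 3.08 TPM in dTAG Epi, against 8.94, 12.1 and 7.97 TPM in controls, also without overlap (-1.001, 0.134). Epcam was at 452, 488 and 398 TPM in dTAG Epi and 417, 414 and 400 TPM in controls, and Cdh1, Fn1 and Snai1 overlapped as well. Zbtb17 transcript was not lower, at a median of 5.91 TPM in dTAG Epi and 2.46 TPM in controls, and a degron acts on protein.

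PrE markers also moved in the dTAG libraries, with a sum of 2342 to 2447 TPM in dTAG Epi and 733 to 868 TPM in controls, and Dab2 at 63.4 to 89.7 TPM against 3.94 to 5.90 TPM. Control PrE had more Ovol2 than control Epi in the other table, and the part of PrE markers in the Ovol2 result was not tested. Of 38 tested junction and polarity genes 8 rose and 1 fell, where 11.7% of all genes were called. Of 9 mesenchymal genes 2 rose, Sparc (256 TPM in dTAG Epi, 64.4 TPM in controls) and Lgals1. At E4.5, in the sparse Zbtb17 KO table, 0 of 3 tested genes passed, where 0.131% of all genes did. Cdh1 was at 0.348, 1.30 and 39.7 TPM in Zbtb17 KO Epi and 12.5, 2.70 and 18.1 TPM in controls. Epcam was at 160, 134 and 173 TPM in Zbtb17 KO Epi and 170, 232 and 290 TPM in controls. Ovol2, Cdh2 and Zeb2 were at 0 in all 6 libraries, and Zbtb17 itself had a median of 0 in KO and in control libraries. Trophectoderm and extraembryonic ectoderm markers summed to 360 to 394 TPM in Zbtb17 KO and 15.4 to 96.1 TPM in controls.

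In embryoid bodies the Zbtb17 knockout had Vim and Fn1 below wild type on day 1 and above it on days 2 and 3. Zbtb17 transcript had a median of 10.0, 13.4 and 13.5 TPM on days 1, 2 and 3 in knockout EB, against 22.1, 21.9 and 17.7 TPM in wild type. Paired libraries of a group were nearly identical (r 0.9929 to 0.9949), and the p-values rest on that small spread. Each pair was still counted as 2 libraries, while the PrE controls alike at r = 0.9955 were averaged. No alternative counted an EB pair as 1 library, so whether the EB calls depend on this was not tested. On day 1 Fn1 had 185 and 187 TPM in Zbtb17 KO, against 308 and 314 TPM in wild type (log2 change -0.74, limma adjusted p = 9.28e-08). On day 2 it had 295 and 293 TPM in Zbtb17 KO, against 117 and 117 TPM in wild type (1.32, 2.02e-10). On day 3 it had 155 and 161 TPM in Zbtb17 KO, against 56.7 and 55.7 TPM in wild type (1.47, 3.47e-11). The sign of the difference thus turned between day 1 and day 2.

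Vim followed the same course as Fn1. On day 1 it had 210 and 207 TPM in Zbtb17 KO, against 279 and 274 TPM in wild type (log2 change -0.40, limma adjusted p = 0.000125). On day 2 it had 259 and 263 TPM in Zbtb17 KO, against 114 and 124 TPM in wild type (1.13, 1.13e-08). On day 3 it had 189 and 195 TPM in Zbtb17 KO, against 73.8 and 68.3 TPM in wild type (1.42, 6.47e-10). In wild type these 2 genes were highest on day 1 and lower on each later day, while in the knockout they were highest on day 2. The knockout effect on day 3 minus that on day 1 was 2.21 for Fn1 and 1.83 for Vim (limma adjusted p = 8.82e-11 and 6.73e-09).

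**Figure D3:**
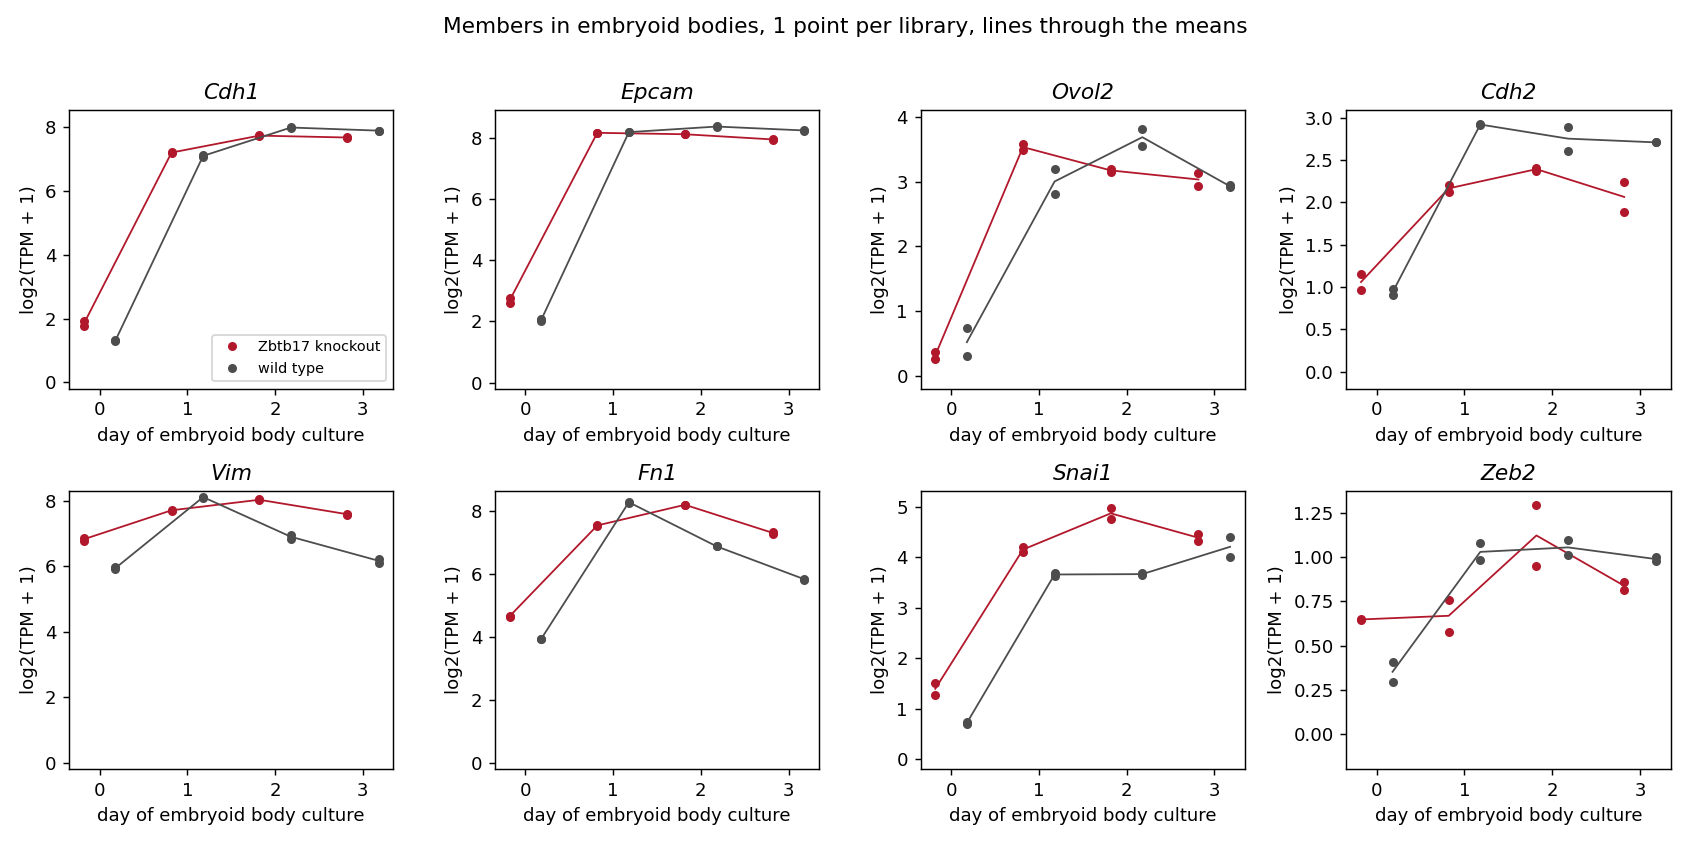
Levels of the 8 genes in Zbtb17 knockout and wild-type embryoid bodies on days 0 to 3, on the log2(TPM + 1) scale, with 1 point per library (red knockout, dark grey wild type) and lines through the means. The knockout lines of Vim and Fn1 lie below wild type on day 1 and above it on days 2 and 3, and those of Cdh1 and Epcam lie slightly below wild type on days 2 and 3.

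The epithelial genes moved the other way and by less. Cdh1 had 147 and 146 TPM in Zbtb17 KO on day 1, against 134 and 139 TPM in wild type, and did not pass. On day 2 it had 212 and 214 TPM in Zbtb17 KO, against 254 and 253 TPM in wild type (log2 change -0.25, limma adjusted p = 0.00263). On day 3 it had 201 and 207 TPM in Zbtb17 KO, against 237 and 237 TPM in wild type (-0.22, 0.00506). The groups did not overlap on either day, and the median of all genes tested was -0.067 on day 2 and -0.10 on day 3. Epcam had 279 and 279 TPM in Zbtb17 KO on day 2, against 327 and 337 TPM in wild type (-0.25, 0.00269). On day 3 it had 245 and 250 TPM in Zbtb17 KO, against 299 and 309 TPM in wild type (-0.29, 0.000623). The calls on Cdh1, Epcam, Vim and Fn1 on days 2 and 3 held under all 7 alternatives run on them, each of which kept the pairs as 2 libraries or left 1 out. Day 3 minus day 1 was -0.32 for Cdh1 (adjusted p = 0.00562) and -0.27 for Epcam (0.0136).

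Of the repressors, Snai1 was higher in the knockout on day 2, at 30.4 and 26.2 TPM against 11.9 and 11.5 TPM in wild type (log2 change 1.20, limma adjusted p = 1.20e-05). On day 1 it had 16.2 and 17.4 TPM in Zbtb17 KO, against 11.3 and 11.95 TPM in wild type (0.49, 0.00863), and this call was lost without wild-type library 1 (adjusted p = 0.0596) or knockout library 2 (0.0627). On day 3, at 19.0 and 20.9 TPM in Zbtb17 KO and 15.1 and 20.2 TPM in wild type, it did not pass. Ovol2 was higher in the knockout on day 1 (10.95 and 10.3 TPM against 8.16 and 6.03 TPM, 0.53, 0.0169) and lower on day 2 (7.93 and 8.15 TPM against 10.8 and 13.1 TPM, -0.51, 0.0169). Both Ovol2 calls were lost with 1 library left out (highest adjusted p 0.160 and 0.138). Cdh2 was lower in the knockout on days 1 to 3. It had 3.35 and 3.62 TPM on day 1 against 6.53 and 6.60 TPM in wild type (-0.75, 0.000636). On day 3 it had 3.73 and 2.70 TPM against 5.53 and 5.54 TPM (-0.64, 0.000862), and the day 2 call (-0.36, 0.0338) was lost under all 7 alternatives (highest adjusted p 0.267). N-cadherin was thus lower together with Vim and Fn1 on day 1 and parted from them on days 2 and 3. Zeb2 had 0.691 and 0.494 TPM in Zbtb17 KO on day 1, against 1.11 and 0.976 TPM in wild type. On day 2 it had 0.933 and 1.45 TPM in Zbtb17 KO, against 1.02 and 1.14 TPM in wild type. On day 3 it had 0.759 and 0.818 TPM in Zbtb17 KO, against 0.969 and 1.003 TPM in wild type. It lay below wild type on days 1 and 3, too low for a test there, and overlapped on day 2.

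By count, 5 of 7 tested genes were called on day 1, where 36.4% of all genes were, 7 of 8 on day 2 (42.8%) and 5 of 7 on day 3 (55.2%), and 4 of 8 differed in effect between days 3 and 1 (39%). The mesenchymal list rose with Vim and Fn1: 8 rose and 9 fell of 38 tested on day 1, 37 rose and 0 fell of 39 on day 2, and 33 rose and 2 fell of 37 on day 3. The list's median log2 change was 1.42 on day 2 and 1.19 on day 3, against -0.067 and -0.10 for all genes tested. The collagen gene Col1a1 averaged 40.9 TPM in Zbtb17 KO on day 3 against 5.44 TPM in wild type, Col1a2 29.4 TPM against 5.07 TPM and Lgals1 385 TPM against 169 TPM. Loxl2 and Tagln fell.

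Of junction and polarity genes, 8 rose and 19 fell of 40 tested on day 2, and 6 rose and 23 fell of 40 on day 3. Of all genes tested, 2457 rose and 3400 fell on day 2, and 2791 rose and 4589 fell on day 3. The list's median log2 change was -0.26 on day 2 and -0.40 on day 3, and its difference from all genes was not tested. Cldn6 averaged 176 TPM in Zbtb17 KO on day 3 against 390 TPM in wild type, the tight junction scaffold Tjp1 20.4 TPM against 38.3 TPM and the tricellular junction gene Lsr 67.7 TPM against 115 TPM. Cldn4, Krt19 and Jup rose. The epithelial regulators split, with 5 rises and 3 falls of 9 tested on day 3: Klf5 (22.8 TPM in Zbtb17 KO, 10.9 TPM in wild type), Elf3 and Grhl2 rose, and the splicing regulators Esrp1 (32.9 and 54.5 TPM) and Esrp2 fell. On day 1 the keratins rose, with Krt8 at 119 TPM in Zbtb17 KO and 8.78 TPM in wild type. Trophectoderm and extraembryonic ectoderm markers summed to 181 to 182 TPM in Zbtb17 KO and 58.2 to 59.6 TPM in wild type on day 1, 234 to 247 TPM and 51.3 to 52.6 TPM on day 2, and 179 to 186 TPM and 112 to 116 TPM on day 3. Their part in the keratin rises was not tested.

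Fibroblast markers moved with Vim and Fn1 on days 2 and 3, and blood markers did not. The sum of 15 measured stromal, decidual and blood markers was 191 to 193 TPM in Zbtb17 KO and 217 to 218 TPM in wild type on day 1, 313 to 316 TPM and 94.7 to 98.4 TPM on day 2, and 198 TPM and 52.3 to 53.0 TPM on day 3. Of the 15, 9 were at 1 TPM or more in the knockout on day 3 and 9 in wild type. The fibroblast marker Dcn was at 8.53 to 10.3 TPM in Zbtb17 KO and 2.06 to 2.38 TPM in wild type on day 3, and Lum at 2.44 to 2.63 TPM and 0.361 to 0.429 TPM. The endothelial gene Pecam1 was higher too, at 10.7 to 10.9 TPM in Zbtb17 KO and 2.24 to 2.37 TPM in wild type. The receptor gene Kdr was lower, at 0.283 to 0.342 TPM in Zbtb17 KO and 1.53 to 1.80 TPM in wild type, as was the haemoglobin gene Hba-a2, at 0.156 to 0.596 TPM and 0.954 to 2.24 TPM. The decidual gene Prl8a2 and the haemoglobin gene Hbb-bs were at 0 in all of these libraries. This list shares 6 genes with the mesenchymal list, and its part in the Vim and Fn1 results was not tested.

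On day 0, where the libraries stood apart, Cdh1, Epcam, Vim, Fn1 and Snai1 were all higher in the knockout, 5 of 5 tested, where 58.9% of all genes were called. Most calls of that day were rises, with 3234 genes higher and 809 lower and a median log2 change of 0.23 over all genes tested. Vim had 109 and 116 TPM in Zbtb17 KO, against 59.8 and 61.6 TPM in wild type, and Epcam 5.82 and 5.05 TPM against 3.04 and 3.22 TPM. In wild type, Cdh1 rose by 0.89 (log2) on day 2 relative to day 1 while Vim and Fn1 fell (log2 changes -1.21 and -1.402), with 5 of 8 tested genes called and 56.1% of all genes. Relative to day 1, on day 3 Cdh1 and Snai1 were higher by 0.79 and 0.55, and Vim and Fn1 were lower (log2 changes -1.95 and -2.45), with 4 of 8 called and 69.9% of all genes. Of junction genes 24 rose and 7 fell of 39 tested on day 3, with a median log2 change of 0.69, and of the mesenchymal list 4 rose and 28 fell of 38, with a median of -1.35, where the median of all genes was -0.051. Relative to day 0 all 7 tested genes were called on day 1, as were 97.6% of all genes, so nothing is read from that step.

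In the screen of 39 knockouts with a test, 232 pairs of a gene and a knockout were tested, 24 rose and 18 fell, or 18.1%, where 10.1% of all gene and knockout pairs were called. Without batch 7 the counts were 22 and 16 of 226, or 16.8%, where 9.47% of all gene and knockout pairs were called. Epcam was called most often, with 5 rises and 10 falls of 39, followed by Cdh1 with 3 rises and 6 falls of 39. Fn1 had 8 rises and 0 falls of 36, Vim 4 and 0 of 38, Snai1 3 and 2 of 39 and Ovol2 1 and 0 of 39. In batches 4, 5 and 7 every control had Fn1 below 1 TPM, at most 0.876, 0.549 and 0.0298 TPM. Fn1 was tested there only through knockout libraries at 1 TPM or more, so a fall could not be called. Its rises in Tfap2c, Myc, Ezh2, Zfp57 and batch 7 Bend3 come from these batches, so the lack of falls shows no direction there. Cdh2 was testable in 2 knockouts with no call, and Zeb2 in none. Of the knockouts, 16 had no call by limma, 12 had 1, 6 had 2 and 5 had 3 or more. The Aurkb knockout had 3 nearly identical libraries (r 0.9979 to 0.9981) and was not tested. Among the knockouts with no call, 7.5% of all genes were called in the Hdac1 Hdac3 double knockout, 7.4% in Chd4, 6.86% in Ascl2 (2 libraries), 4.42% in Otx2, 2.53% in Ss18, 1.82% in Jarid2, 1.77% in Mta2, 1.62% in Zfp281, 1.39% in Fos, 1.32% in Mbd3, 1.22% in Sox4, 0.537% in Wt1, 0.466% in Junb and 0.364% in Hsf2.

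**Figure D4:**
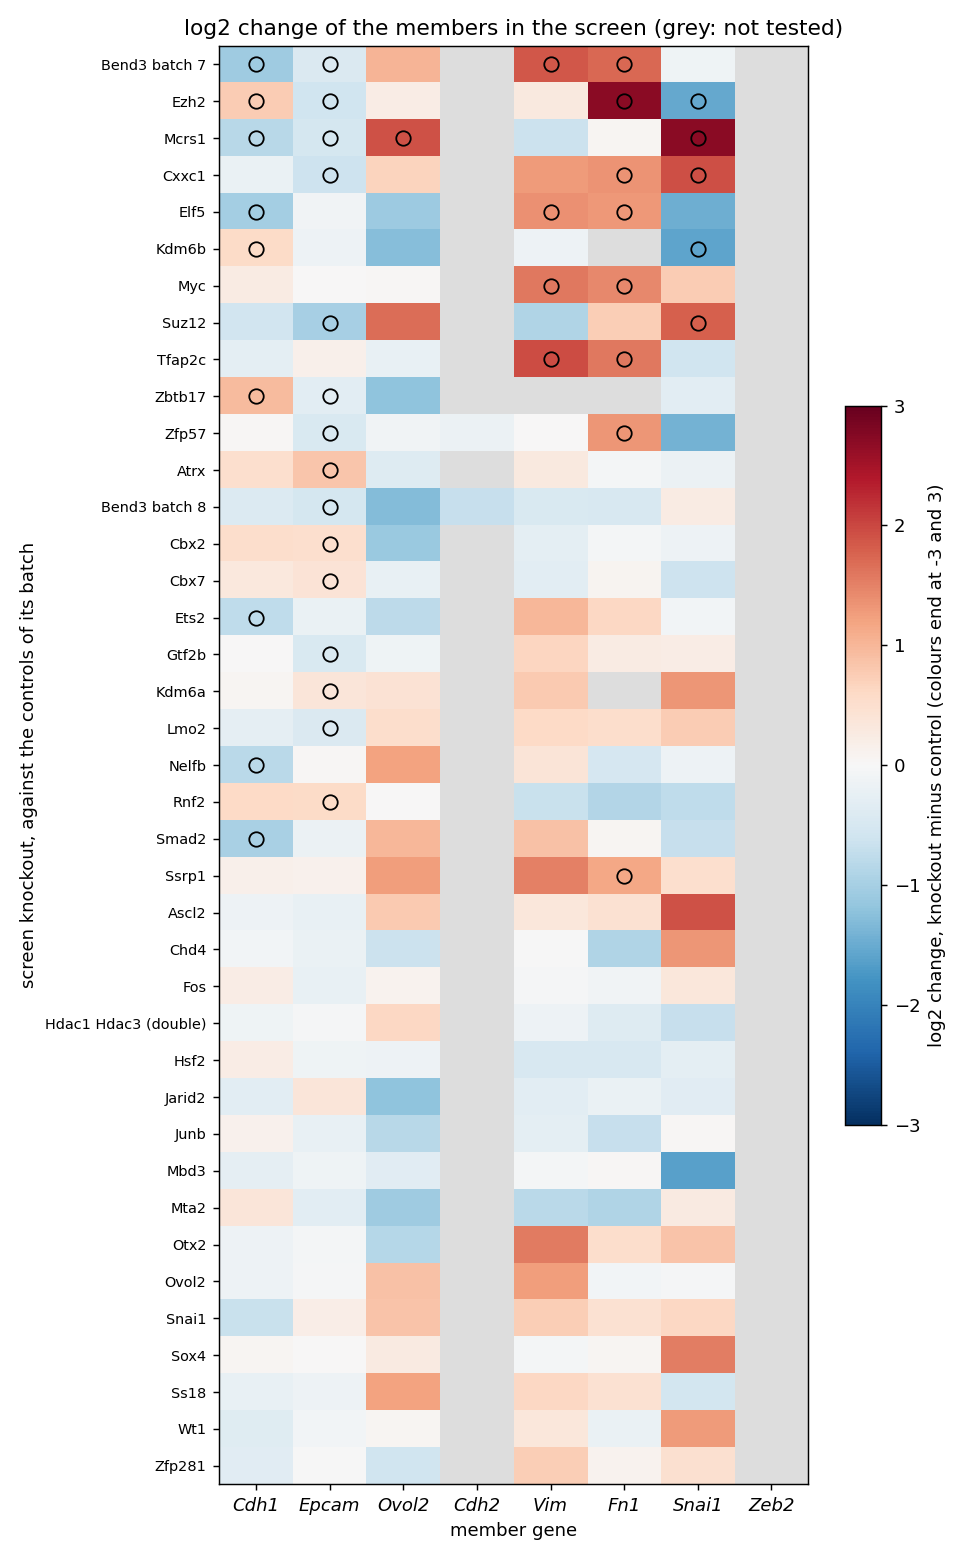
Log2 change of each gene in each screen knockout against the controls of its batch, red for higher and blue for lower in the knockout. Circles mark changes that passed the test and grey marks pairs not tested. Knockouts with most calls are at the top, where Ezh2 has the darkest Fn1 cell and Mcrs1 the darkest Snai1 cell.

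Epcam fell most in the Suz12 knockout. It had 260, 305 and 224 TPM in Suz12 knockout Epi, against 554, 529 and 496 TPM in the batch 2 controls (log2 change -1.01 ± 0.11 SE, limma adjusted p = 8.73e-13), and all knockout libraries were below all controls. With the same controls it fell in libraries labelled Cxxc1 (349, 338 and 339 TPM; -0.62), Mcrs1 (340, 369 and 378 TPM; -0.54) and Lmo2 (409, 389 and 364 TPM; -0.44). Cxxc1 is a subunit of H3K4 methyltransferase complexes and Mcrs1 a subunit of NSL and INO80 complexes. These 4 calls held under all 8 alternatives run on them. Lmo2 itself had a median of 0 TPM both in its knockout and in controls. In the Ezh2 knockout, which targets the catalytic subunit of PRC2, Epcam had 308, 334 and 209 TPM against 461, 460 and 361 TPM in the batch 5 controls (-0.61, 8.42e-06), a call lost when only these groups were fitted (adjusted p = 0.132). It also fell in Bend3 of batch 8 (622 TPM on average against 902 TPM in controls), Zfp57 (310 TPM against 427 TPM), Gtf2b (390 TPM against 532 TPM) and Zbtb17 (425 TPM against 525 TPM). The Zfp57 call was lost when only its groups were fitted (adjusted p = 0.0828). Of all genes tested, 22.1% were called in the Suz12, 21.4% in the Cxxc1, 5.1% in the Lmo2, 26.8% in the Ezh2, 28.5% in the batch 8 Bend3, 16.8% in the Zfp57 and 15.4% in the Gtf2b knockout. Suz12 itself had a median of 4.02 TPM in its knockout and 26.0 TPM in controls, and extraembryonic ectoderm markers summed to 9632 to 9860 TPM against 1296 to 1334 TPM in controls.

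The rises of Epcam came mainly from batch 3, where it was called higher in 4 of 5 knockouts against the same 3 controls. It had 425, 394 and 379 TPM in Atrx knockout Epi, against 223, 217 and 229 TPM in controls (log2 change 0.84 ± 0.11 SE, limma adjusted p = 1.48e-08). The averages were 334 TPM in Rnf2, 318 TPM in Cbx2 and 297 TPM in Cbx7 knockouts. In Jarid2 knockout Epi, with no call, Epcam had 306, 265 and 294 TPM, also above every control (limma adjusted p = 0.0726). It passed there when only these groups were fitted (0.00618). Rnf2, Cbx2 and Cbx7 are subunits of PRC1, the other Polycomb complex. Transcripts of Atrx, Cbx2 and Cbx7 overlapped the controls in their own knockouts. Medians in knockout and control were 17.8 and 17.9 TPM for Atrx, 1.17 and 0.778 TPM for Cbx2, and 7.48 and 9.26 TPM for Cbx7. Rnf2 was below every control, at a median of 32.2 TPM against 49.9 TPM. These controls were the lowest of any batch for Epcam, and their extraembryonic ectoderm marker sum was 6817 to 7041 TPM, against 1139 to 1204 TPM in Atrx, 2105 to 2143 TPM in Rnf2, 1142 to 1169 TPM in Cbx2 and 3237 to 3459 TPM in Cbx7 libraries. The part of those markers in the Epcam rises was not tested. Few genes were called in these knockouts, 3.38% in Atrx, 1.83% in Rnf2, 1.66% in Cbx2 and 0.959% in Cbx7. The Cbx7 call was lost with any 1 library left out (adjusted p 0.104 to 0.556). In batch 4, Epcam averaged 651 TPM in Kdm6a knockout Epi and 505 TPM in controls, where 9.25% of all genes were called, and this call was lost without control 1 or knockout 1 or 2 (adjusted p up to 0.165).

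Cdh1 rose in the Zbtb17 knockout of the screen. It had 102, 96.6 and 59.1 TPM in Zbtb17 knockout Epi, against 49.4, 43.1 and 36.8 TPM in batch 6 controls, and every knockout library was above every control (log2 change 0.95 ± 0.22 SE, limma adjusted p = 0.000362). The call was lost when only these groups were fitted (adjusted p = 0.0952). Epcam had 461, 435 and 381 TPM there, against 522, 545 and 508 TPM in controls (-0.31, 0.0285), a call lost without control 2 or knockout 2 or 3 (adjusted p up to 0.136). With the replicate block both the Cdh1 and the Epcam call were lost (limma adjusted p 0.111 and 0.230). The Epcam call was also lost when only these groups were fitted (0.191). The 2 epithelial surface genes thus had opposite calls in this knockout, where 30.4% of all genes were called and Zbtb17 transcript overlapped the controls. Of 39 tested junction and polarity genes 13 rose and 2 fell, led by Krt8 (3519 TPM in knockout, 833 TPM in control), Krt19 and Krt18, beside an extraembryonic ectoderm marker sum of 3979 to 4454 TPM against 1098 to 1235 TPM in controls.

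Cdh1 also rose in Ezh2 (31.0, 47.3 and 39.9 TPM against 21.3, 26.6 and 20.5 TPM in the batch 5 controls) and in Kdm6b knockouts (44.8, 32.6 and 27.8 TPM against the same controls). The Ezh2 call was lost without knockout library 2 (adjusted p = 0.0724) and when only its groups were fitted (0.305), and the Kdm6b call with 5 of 6 libraries left out in turn (up to 0.271), where 22.7% of all genes were called. Cdh1 fell in Elf5, with 27.3, 22.2 and 28.6 TPM against 52.7, 58.3 and 51.1 TPM in the batch 2 controls (log2 change -1.03, limma adjusted p = 0.000135). Against the same controls it fell in Mcrs1 (33.8, 26.7 and 29.9 TPM; -0.83) and Ets2 (36.2, 33.2 and 25.6 TPM; -0.77). Elf5 and Ets2 are transcription factors of the trophoblast lineage, and 25.1% and 23.4% of all genes were called in their knockouts. The Ets2 call was lost without knockout library 3 (adjusted p = 0.0975) and when only its groups were fitted (0.0949). In libraries labelled Nelfb knockout, where Nelfb itself was at 13.8 to 26.7 TPM against 9.995 to 12.5 TPM in controls, Cdh1 had 22.6, 33.8 and 26.2 TPM against 49.1, 49.4 and 47.2 TPM in controls (-0.81, 0.00333; 21.4% of all genes called), and this call was lost when only these groups were fitted (0.0511). In Smad2, a transducer of Nodal signals, it had 36.5, 33.2 and 37.7 TPM against 66.3, 48.3 and 112 TPM (-0.97, 0.00268; 2.26% of all genes called), a call lost without control 3 (adjusted p = 0.309) or knockout 2 (0.0536).

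Fn1 rose most in the Ezh2 knockout. It had 3.84, 10.3 and 9.73 TPM in Ezh2 knockout Epi, against 0.385, 0.549 and 0 TPM in controls (log2 change 2.70 ± 0.36 SE, limma adjusted p = 1.74e-09). The groups were far apart, with every control below 1 TPM, so Fn1 passed the filter only through the knockout libraries. With the replicate block the call was lost (limma adjusted p = 0.0711). Ezh2 itself had a median of 14.7 TPM in knockout and 48.6 TPM in control libraries. PrE markers summed to 3910 to 4297 TPM in these knockout libraries and 973 to 1150 TPM in controls, and their part in the Fn1 rise was not tested. Fn1 also rose in Tfap2c (3.33, 4.52 and 3.00 TPM) and in libraries labelled Myc knockout (2.96, 3.61 and 2.80 TPM), each against 0.224, 0.539 and 0.876 TPM in the batch 4 controls, where 13.4% and 9.7% of all genes were called. The Tfap2c call held under all 8 alternatives, and the Myc call was lost without control 1 (adjusted p = 0.0509). Fn1 had 6.27, 6.99 and 5.02 TPM in libraries labelled Cxxc1 knockout, against 1.22, 3.04 and 1.32 TPM in the batch 2 controls (1.36, 0.00301; 0.0751 when only these groups were fitted). Elf5, with 5.86, 12.7 and 2.30 TPM, overlapped those controls, and its call was lost without knockout library 2 (adjusted p = 0.159). Fn1 also rose in Zfp57 (0.183 when only its groups were fitted), Ssrp1 and the batch 7 libraries labelled Bend3 knockout, where the Ssrp1 call (6.62% of all genes called) was lost with 5 of 6 libraries left out in turn.

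Vim rose in Tfap2c knockout Epi, at 9.22, 11.6 and 17.4 TPM against 1.35, 1.84 and 4.97 TPM in controls (log2 change 1.96 ± 0.53 SE, limma adjusted p = 0.00519). It rose in Myc, at 9.79, 3.37 and 21.9 TPM against the same controls (1.59, 0.0389), where the groups overlapped. It rose in Elf5, at 13.2, 15.1 and 31.8 TPM against 6.65, 6.32 and 6.88 TPM (1.36, 0.0476), a call lost with any 1 library left out (adjusted p 0.0548 to 0.238). The Myc call was lost without control 1 or 2 or knockout 1 or 3 (adjusted p up to 0.353), and the Tfap2c call without knockout 3 (0.0503). Tfap2c itself had a median of 13.9 TPM in its knockout and 51.7 TPM in controls, while Myc was higher in libraries labelled Myc knockout, at 145 TPM against 55.5 TPM. Thus Vim and Fn1 were both called in the Tfap2c, Myc, Elf5 and batch 7 Bend3 knockouts, and the Tfap2c and Myc knockouts share their controls.

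Snai1 rose in 3 knockouts of batch 2, against the same controls at 3.17, 6.996 and 7.29 TPM. It had 46.4, 32.7 and 47.9 TPM in Mcrs1 (log2 change 2.72 ± 0.60 SE, limma adjusted p = 0.000259), 28.8, 23.5 and 19.6 TPM in Cxxc1 (1.92, 0.0116) and 27.7, 18.3 and 19.7 TPM in Suz12 knockout Epi (1.79, 0.0190). No knockout library overlapped the controls. The Mcrs1 call held under all 8 alternatives, the Cxxc1 call was lost without knockout 1 (adjusted p = 0.0778), and the Suz12 call without control 1 or knockout 1 or 3 (0.0647 to 0.1203). Epcam fell in all 3. Snai1 fell in Kdm6b and Ezh2 knockouts, to averages of 0.698 and 0.828 TPM against 4.41 TPM in the batch 5 controls, and these calls (adjusted p 0.0438 and 0.0442) were lost with most single libraries left out. Cxxc1 transcript was higher in libraries labelled Cxxc1 knockout, with a median of 6.64 TPM against 2.15 TPM in controls.

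In the Mcrs1 knockout genes of both kinds were called, where 17% of all genes were. Mcrs1 itself had a median of 53.7 TPM in its knockout and 88.3 TPM in controls (limma adjusted p = 0.142). Beside the rise of Snai1 and the falls of Cdh1 and Epcam, Ovol2 was called higher at 9.58, 14.2 and 26.0 TPM against 11.3, 3.45 and 0.514 TPM in controls (log2 change 1.90, limma adjusted p = 0.0309), with overlap, and was lost without control 2 or 3 or knockout 2 or 3 (adjusted p up to 0.352). Of 10 tested mesenchymal genes 5 rose and 0 fell, led by Sparc (1547 TPM in Mcrs1 knockout, 173 TPM in control). Of 39 junction genes 4 rose and 2 fell, with Krt19 and Spint2 up and Krt18 and Krt8 down. Vim and Fn1 did not pass. PrE markers summed to 2994 to 3318 TPM in these libraries and 949 to 977 TPM in controls, and the part of those markers in these changes was not tested. In the Suz12 knockout 7 of 14 mesenchymal genes rose and 0 fell, and in the Cxxc1 knockout 5 of 10 rose and 0 fell. Of all genes tested, 22.1% and 21.4% were called in these knockouts.

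Snai1 and Ovol2 were themselves targeted in the screen, and none of the 8 genes was called in those libraries in the main fit. In libraries labelled Snai1 knockout, Snai1 had 13.6, 12.02 and 15.7 TPM, against 10.0, 10.3 and 6.08 TPM in controls, above rather than below them. Cdh1 had 35.9, 24.7 and 31.2 TPM in these libraries, against 49.1, 49.4 and 47.2 TPM in controls, without overlap (log2 change -0.66, limma adjusted p = 0.1203). Only 1.49% of all genes were called. In libraries labelled Ovol2 knockout, Ovol2 had 6.79, 11.02 and 8.56 TPM, against 3.88, 3.36 and 5.73 TPM in controls, again above them. Vim had 19.0, 18.4 and 15.4 TPM in these libraries, against 8.23, 5.89 and 6.502 TPM in controls, without overlap (1.25, 0.848), where 0.663% of all genes were called. This Vim difference passed when only these groups were fitted (limma adjusted p = 0.00353) and with the replicate block (0.00346). Keratins Krt19, Krt8 and Krt18 rose in the libraries labelled Ovol2 knockout and Ap1m2, Cldn7 and Crb3 fell, 3 and 3 of 40 junction genes tested, while 1 gene of 11 in the mesenchymal list rose. In the libraries labelled Snai1 knockout 1 of 38 junction genes rose, Krt8 (869 TPM against 530 TPM in controls), and Sparc fell (91.9 TPM against 258 TPM).

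Batch 7 libraries labelled Bend3 knockout had 4 calls, where 38.8% of all genes were called, and every one rests on 2 controls that differed from each other. Bend3 itself was higher in these libraries, at 7.03 to 22.3 TPM against 4.05 to 5.69 TPM in controls (limma adjusted p = 0.0366). All 4 calls were lost when only these groups were fitted (adjusted p 0.4455 to 0.667). Vim had 12.5, 4.12 and 38.5 TPM in Bend3 knockout Epi and 13.8 and 0 TPM in controls, and its log2 change of 1.86 turned to -0.08 without control 2 (adjusted p = 0.936). Epcam (-0.43) was lost without control 2 (0.630) and with Rn45s left out of the totals (0.142). Cdh1 had 115, 38.0 and 49.9 TPM in Bend3 knockout Epi and 158 and 103 TPM in controls, and Fn1 5.14, 2.34 and 0.838 TPM and 0.0298 and 0 TPM. In batch 8, where Bend3 was lower in the knockout (9.89 to 10.8 TPM against 17.5 to 43.3 TPM in controls), Epcam fell and Cdh1, Vim and Fn1 did not pass the test.

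Across the 146 screen libraries, after the batch mean was taken out, the 8 genes were only weakly alike. The highest correlation was between Vim and Fn1 (Pearson r = 0.36 on the log2 scale), and Cdh1 and Epcam reached 0.13. Genes most like each were Morc4 (r = 0.64), Vcl and Gga2 for Cdh1, and Nolc1 (0.61) and Eprs for Epcam. They were Gm8909 (0.55), Hspb1 and Ifitm1 for Fn1, and Hand1 (0.54), Elovl1 and Rgcc for Snai1. For Vim the nearest was Pla2g10 (0.46) and for Ovol2 Smim14 (0.42). These values describe libraries that share batches and knockout groups.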

How the data were processed

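RNA levels were deposited by the authors as TPM values per gene, with HISAT2 2.2.1, StringTie 2.2.1 and Cufflinks named for mm10, per the submitters' processing notes. TPM keeps no read depth, so the depth behind each value is unknown, and a zero may be a missed transcript. Library totals were 984852 to 993453 TPM. The EB table has no gene column and was read in the row order of the screen table: in that order levels of the 2 tables correlated at r = 0.905, and at most 0.111 when shifted by 1 to 5 rows.

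Differences were tested with limma 3.58.1 (R 4.3.3, trend on the mean) on log2(TPM + 1), a scale that understates changes of low genes. A gene was tested if the libraries with 1 TPM or more were no fewer than the size of the smaller group. P-values were adjusted by Benjamini and Hochberg over all genes of a comparison, with a threshold of 0.05, in 55 comparisons. The share of all genes whose groups did not overlap was not counted, so a lack of overlap is a description only. Embryo tables were fitted alone, the Suz12 Eed lineages together, all EB days together and all screen batches in 1 fit. The 2 PrE controls and the 3 Aurkb knockouts that were nearly identical were averaged, and the EB pairs were not. Same-numbered libraries were checked for pairing, read where every pair deviated together (r over 0.1). This held in 1 of 41 comparisons with 3 pairs, Suz12 Eed in Epi (r 0.101 to 0.238). The main fit used no pairing there either. The replicate block was an alternative, under which Epcam passed (limma adjusted p = 0.0366). The fit was tested on simulated data.

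The 8 genes and all lists were chosen with earlier results of these data known. The genes named from a list are up to 3 a direction with the smallest adjusted p, groups that do not overlap and a mean of 5 TPM or more. In the screen this holds for the Snai1 and Ovol2 knockouts and those with 2 or more calls. The genes most like each of the 8 are the 3 with the highest Pearson r. Some genes that these rules name are not reported here. Alternatives were a pseudocount of 0.1, no filter, quantile normalization, a replicate block, each library left out, only the groups compared, PrE controls kept apart and adjustment over all knockouts. Leaving out batch 7, Rn45s or, in EB, ribosomal protein genes was chosen after seeing the data.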

Additional observations from a re-analysis of the deposited data

Results flagged for a closer look

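The effect of the Suz12 Eed double knockout differed between PrE and Epi, by a test of the difference itself, by 2.07 for Vim and 1.44 for Ovol2 (log2 scale, PrE minus Epi), where the median over all genes tested was 0.45. Both calls were lost under quantile normalization (limma adjusted p 0.0992 and 0.102). Both were also lost with a library left out (highest adjusted p 0.152 and 0.0792). In EB, the effect of the Zbtb17 knockout on day 3 differed from that on day 1 by 2.21 for Fn1, 1.83 for Vim, -0.32 for Cdh1 and -0.27 for Epcam, and these 4 calls held under all 5 alternatives run on them.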

How the results depend on the processing

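Of 95 called pairs of a gene and a comparison, 47 kept their call under every alternative run on them, 11 of them in the screen. Calls lost with their sign kept numbered 10 of 95 with a pseudocount of 0.1, 8 with no filter and 18 under quantile normalization. They numbered 31 with a library left out, 25 of 82 with the replicate block and 24 of 86 with only the groups compared. Calls whose sign turned are given apart. Adjustment over all knockouts lost 5 of 42, leaving Rn45s out 2 of 42 and leaving ribosomal protein genes out of EB 3 of 42. Signs turned for Vim in the batch 7 Bend3 knockout without 1 library (-0.083), and under quantile normalization for Cdh2 (-1.02) and Snai1 (-0.0115) in wild-type EB on day 1 against day 0. The cause was not tested.

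The count of called genes in GSK-J4 at E5.0 was 2, and 1 with no filter, under quantile normalization or with the replicate block, and 1 to 4 with a library left out. For Suz12 Eed in Epi it was 0 (6 tested by limma), and 1 with no filter, with PrE controls kept apart or with the block. In PrE it was 1, and 2 with PrE controls kept apart or a pseudocount of 0.1, 0 under quantile normalization and 0 to 1 with a library left out. The PrE minus Epi difference had 2, and 4 with PrE controls kept apart, 0 under quantile normalization and 0 to 3 with a library left out. For dTAG it was 1, with 0 for no filter and 0 to 1 with a library left out. EB day 1 had 5, and 3 to 4 with a library left out. Control PrE against Epi had 5, and 3 to 5. Wild-type EB day 1 against day 0 had 7, and 4 under quantile normalization. In the screen it was 42, and 34 with the block, 36 with only the groups compared, 38 without batch 7 and 30 to 38 with a library left out. No paired analysis was possible for the PrE groups, the differences and dTAG, because the averaged control or the numbers could not be matched. Depth is unknown, which limits what a value near 0 shows.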

Other observations

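Of 13 tested genes of gastrulation, 3 rose and 8 fell in Zbtb17 knockout EB on day 3, where 55.2% of all genes were called, 2791 higher and 4589 lower. The list's median log2 change was -1.31, against -0.10 for all genes. The mesoderm regulator T averaged 10.7 TPM in Zbtb17 KO and 76.8 TPM in wild type, Eomes 9.48 TPM and 86.7 TPM, and the signal Fgf8 32.8 TPM and 199 TPM. Bmp4 and Hand1 rose. Vim and Fn1 were higher on the same day.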
